A study of Mus musculus with 7 samples.

Results

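ATP-binding cassette (ABC) proteins form a large gene family, most of whose members use ATP to move lipids, drugs, conjugates or peptides across membranes. The members described here were the rows of the count tables whose symbol is Abc, a subfamily letter from a to g, a number and at most 1 further letter. The rule left out Abcb1a, Abcg2, Abcc4 and Abcc9. That gave 46 genes of 32531 gene symbols, of which 38 passed the filter on low counts and were tested among 17654 genes. Untreated adult mice, all of line Stard8-TRAP ES2342, gave the midbrain RNA. In them EGFP-tagged Rpl10a, a protein of the large ribosomal subunit, is driven from Stard8 regulatory sequence, so that polysomes of the cells using it can be pulled down with antibodies against EGFP. The compared libraries were immunopurified RNA (IP, 3 libraries, numbered 1, 2 and 4) and the RNA left unbound (4 libraries, numbered 1 to 4). All 7 carry the same transgene, from a single line, and the labels do not say how many animals stand behind a library, so the p-values measure the spread between these libraries, which may be technical.

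Subfamilies A and G are best known for exporting cholesterol and phospholipids. Subfamilies B and C hold exporters of drugs, bile salts and glutathione conjugates, together with mitochondrial and lysosomal carriers, and the sulfonylurea receptors, which regulate ATP-sensitive potassium channels. Members of subfamily D bring very-long-chain fatty acids into peroxisomes. Subfamilies E and F have no membrane span and act on ribosomes. In the brain, several family members at the vessel wall keep drugs out, and lipid exporters of glia and neurons load cholesterol onto apolipoprotein E.

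Between 52052340 and 76114634 counts fell in genes per library, and 3 counts stood for 0.0376 to 0.059 CPM (counts per 1000000 counts in genes, with library sizes scaled by the TMM method). The driver gene Stard8 was at 352 ± 111 CPM over the IP libraries and at 4.23 ± 0.569 CPM over the unbound ones (mean ± SD, here and below over 3 and 4 libraries). The series describes the material as neurons, but all 8 neuron markers were lower in IP, with a summed level of 3332 to 7446 CPM against 12830 to 20060 CPM in unbound libraries. The 8 dopamine neuron markers summed to more in IP, at 544 to 608 CPM against 279 to 447 CPM. Most of the IP sum was Aldh1a1, also made outside neurons, at 354 ± 33.8 CPM against 133 ± 51.9 CPM in unbound RNA. Without it the sums of the groups overlapped. Of the 8 markers 1 was called higher (Aldh1a1), 1 lower (the dopamine transporter Slc6a3) and 6 were not called, Th among them (0.12 ± 0.23). All 8 endothelial markers rose, from a sum of 10.5 to 14.4 CPM to 1456 to 1723 CPM, all 8 pericyte and smooth muscle markers from 22.4 to 36.9 CPM to 2809 to 4197 CPM, and all 8 microglia and macrophage markers from 38.8 to 67 CPM to 1097 to 1220 CPM. All 8 oligodendrocyte markers fell, from 5048 to 6826 CPM to 846 to 1577 CPM. Of the astrocyte markers 5 of 8 rose (687.8 to 1284 CPM against 1407 to 1970 CPM in IP), and of the fibroblast markers 6 of 8 (21.6 to 43.2 CPM against 94.1 to 121 CPM). No marker of these lists was at 0 counts in a whole group, and the part that cell makeup played in the changes of ABC genes was not tested. Sequencing lanes differed between IP and unbound libraries throughout, so lane and kind of RNA cannot be told apart.

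IP RNA held more Abca9 and Abca1 and, at low levels, Abcg3 and Abcc6, and less of the lipid exporters Abca2, Abca5, Abcg4 and Abcg1 and of the organic anion exporter Abcc5. Of the 38 tested members 6 were called higher in IP (15.8%) and 12 lower (31.6%) by edgeR's quasi-likelihood test at a Benjamini-Hochberg adjusted p of 0.05. Over all 17654 genes the same shares were 20.5% and 18.9%. The members' median log2 fold change was -0.38, against -0.10 for all genes tested. Of the 38, 9 lay above every unbound library in all IP libraries (23.7%, against 25.1% of all genes) and 11 below (28.9%, against 22.6%). Abcg3 and Abcc6 passed the low-count filter through IP libraries alone, and Abcc2 and Abca17 through unbound libraries alone, so a difference in these 4 was built into their being tested. Among other things, a higher level in IP can stand for more tagged cells of a type or for more RNA per cell, which bulk libraries cannot tell apart. Within the libraries of index ACAGTG (2 IP, 2 unbound) 4 members were called higher and 4 lower. Index GTGAAA (1 IP, 2 unbound) has a lone IP library, which shows no spread within IP, so its calls are not counted. The lower count depended on the IP libraries: leaving out IP 1 or IP 2 gave 5 in each case, and the higher count fell to 4 when IP 4 was left out. Over all genes the lower calls went from 3328 to 1899 without IP 1 and to 1751 without IP 2.

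**Figure D1:**
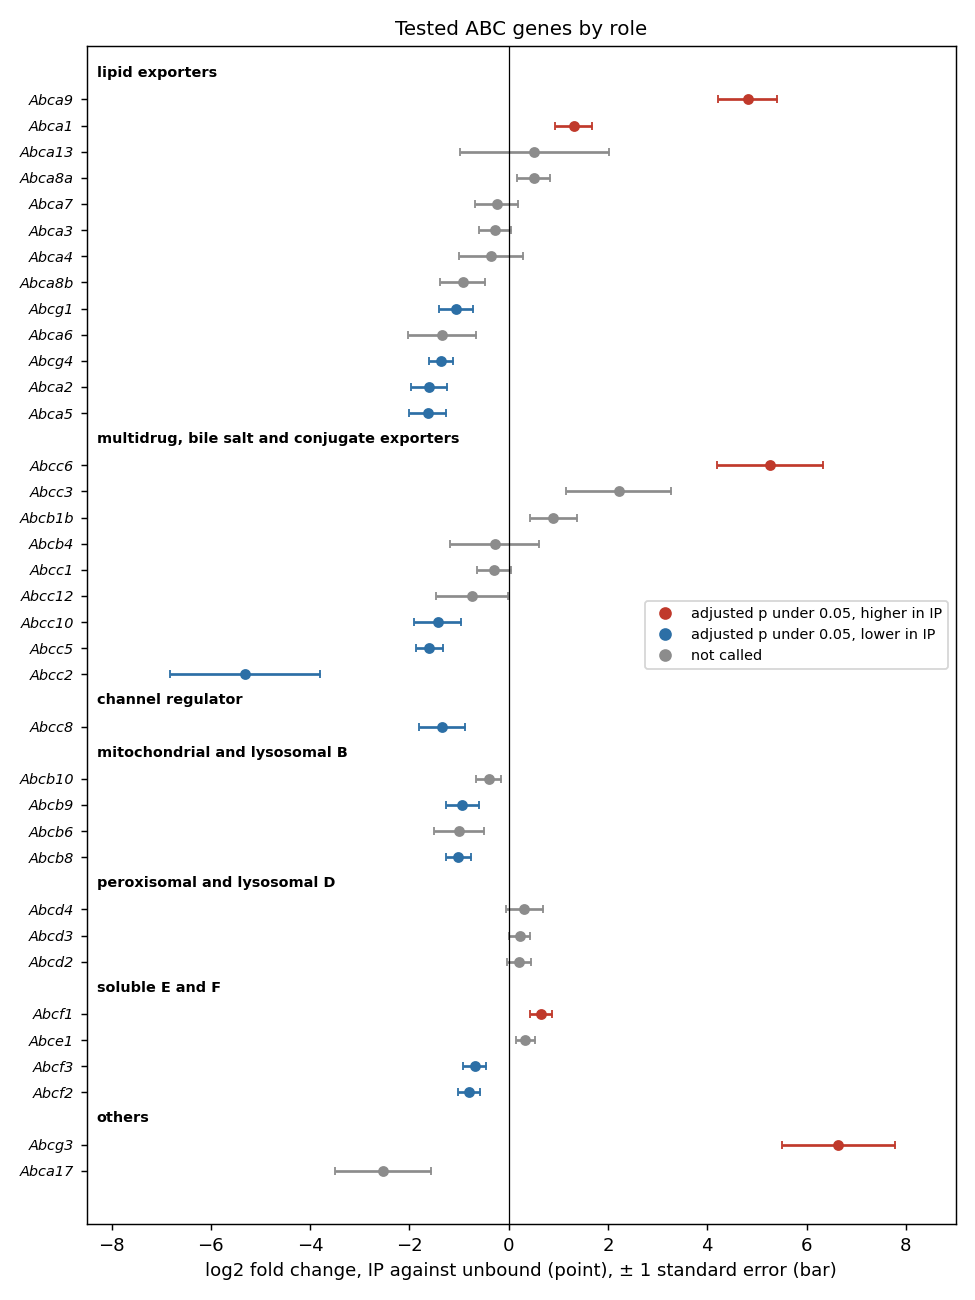
Log2 fold change of IP against unbound RNA (horizontal axis, log2 scale) for tested ABC genes, grouped by role. Points are fitted values, bars 1 standard error, red and blue mark genes higher and lower at an adjusted p of 0.05. Abcg3, Abcc6 and Abca9 lie farthest to the right, and Abcc2 farthest to the left.

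The lipid exporters, 16 genes of which 13 were tested, went both ways, with 2 higher, 4 lower and 7 not called. Counts this small, here and for the other roles, are read as a list of genes beside the 20.5% higher and 18.9% lower over all genes, and not as a property of the role. Abca9, a transporter of the Abca5 to Abca9 group that is regulated by cholesterol in macrophages, had 49.4, 81.7 and 63.6 CPM in IP 1, 2 and 4 and 0.476, 1.7, 2.62 and 4.48 CPM in unbound 1 to 4. The lowest IP library was thus far above the highest unbound one, and the groups did not overlap. Its log2 fold change was 4.81 ± 0.59 (SE, adjusted p = 0.000136), a 28.1-fold difference. Abca1, which loads cholesterol and phospholipid onto lipid-poor apolipoproteins, had 32.1, 37.5 and 52.4 CPM in IP and 25.1, 8.24, 11.9 and 20.3 CPM in unbound RNA. All IP libraries were above all unbound ones, but IP 1 and unbound 1 lay close together. Abca1 rose by 1.31 ± 0.37 (adjusted p = 0.0165), and its call was lost without IP 4 (1.09, adjusted p = 0.0642) and within index ACAGTG (1.06, adjusted p = 0.209).

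Lower in IP were Abca2, Abca5, Abcg4 and Abcg1. Abca2, a sterol transporter of myelinating glia and neurons and the most abundant of the group in unbound RNA, had 34.8, 48.2 and 79.2 CPM in IP and 190.8, 87.5, 208 and 172 CPM in unbound RNA (-1.61 ± 0.37, adjusted p = 0.00591). IP 4 came close to unbound 2, the lowest unbound library, without overlap. Unbound 2 was also the lowest unbound library for Abca1, Abca5, Abcg4, Abcg1 and Abcc8, but the highest for Abcb8. Reads with more than 1 alignment made up 34.6% of its counts, against 17.6%, 24.5% and 21.5% in unbound 1, 3 and 4. The part this played was not tested. Abca5, a lysosomal member, had 7.5, 11 and 21.2 CPM in IP and 44.9, 26.6, 44.3 and 47.6 CPM in unbound RNA (-1.63 ± 0.37, adjusted p = 0.00602). Abcg4, a sterol exporter of neurons and astrocytes, had 21.2, 24.1 and 30.7 CPM in IP and 76.6, 52.3, 72.3 and 59.3 CPM in unbound RNA, with the groups well apart (-1.36 ± 0.24, adjusted p = 0.00143). Its close relative Abcg1, which passes cholesterol to lipoprotein particles, had 26.1, 19.8 and 35.3 CPM in IP and 91, 33.9, 46.8 and 55 CPM in unbound RNA. Here IP 4 overlapped unbound 2, and the change was -1.07 ± 0.35 (adjusted p = 0.032). The call was lost without IP 1, IP 2, unbound 1 or unbound 4 (adjusted p = 0.1, 0.139, 0.0699 and 0.0565) and within index ACAGTG (adjusted p = 0.0956). The changes in these fits were, in this order, -1.025, -0.87, -0.74, -1.08 and -1.44. Abca2, Abca5 and Abcg4 kept their calls in all 20 alternative fits.

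In 8 of the 12 lower members, Abca2, Abca5, Abcg1 and Abcg4 among them, IP 4 was the highest of the IP libraries. The same library had the largest sum of neuron markers, 7446 CPM against 3332 and 3631 CPM in IP 1 and 2, and of oligodendrocyte markers, 1577 CPM against 846 and 961 CPM. Among the 6 higher members IP 4 was the highest in 2 and the lowest in 1. The same counts were not made over all genes, so they are not read as particular to these members. What the marker levels contribute was not tested.

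**Figure D2:**
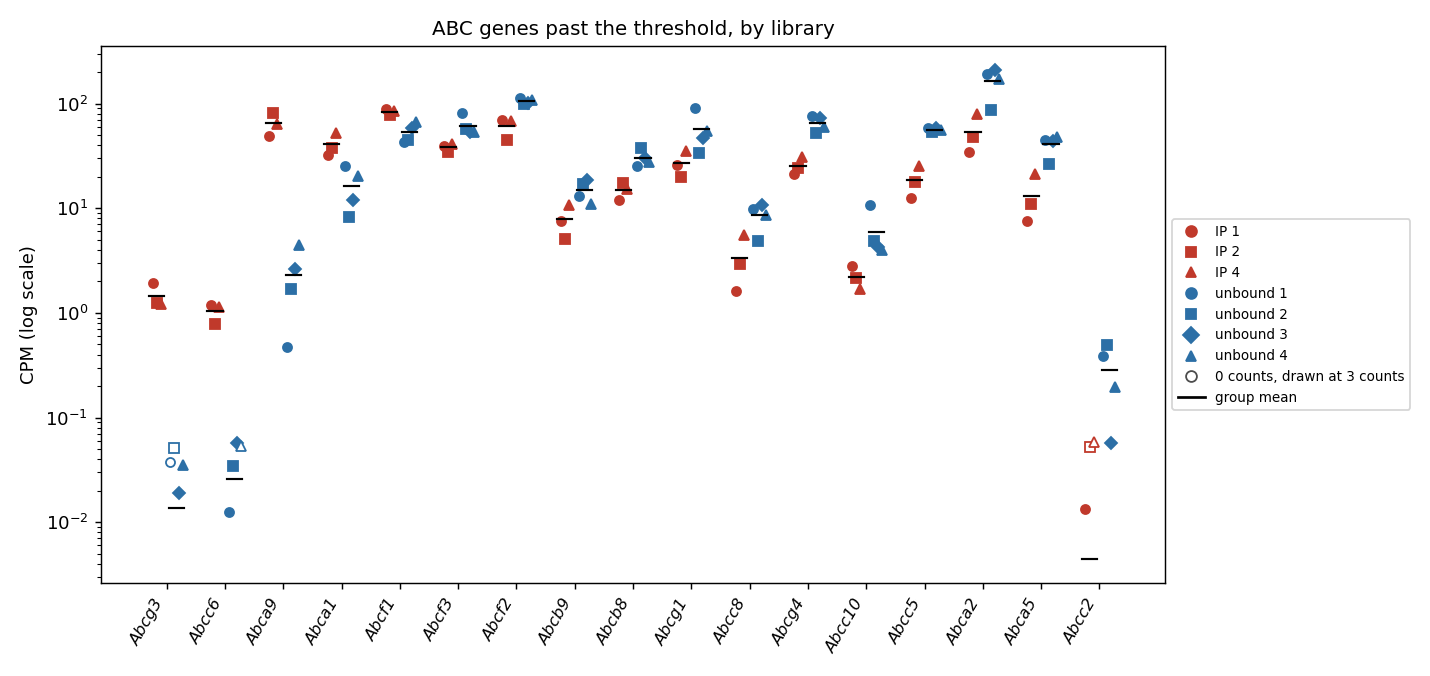
CPM (log scale) in each library for ABC genes past the threshold, ordered from the highest to the lowest log2 fold change, with IP libraries in red, unbound libraries in blue and group means as black bars. Open symbols are libraries with 0 counts, drawn at the level of 3 counts. Abcg1 and Abcc8 are the called genes whose groups overlap.

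The remaining lipid exporters were not called. Abca3, which moves phospholipid into storage organelles, had 19.7 ± 4.84 CPM in IP and 23.9 ± 8.96 CPM in unbound RNA (-0.28 ± 0.32, adjusted p = 0.522). Abca7, a phospholipid exporter linked to Alzheimer disease risk, had 4.04 ± 2.29 and 4.76 ± 0.519 CPM (-0.24 ± 0.43, adjusted p = 0.69), and the retinal flippase Abca4 0.855 ± 0.409 and 1.09 ± 0.254 CPM (-0.35 ± 0.65, adjusted p = 0.697). Abca13 had between 0 and 54 counts a library and a log2 fold change of 0.52 ± 1.5 (adjusted p = 0.811). Abca12, a lipid carrier of skin, had 65 counts in all 7 libraries together. The sterol exporter pair Abcg5 and Abcg8, of liver and gut, had 3 and 66 counts in total. These low totals leave differences of any ordinary size out of reach at this depth.

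Abca9 stood apart from its direct neighbours in the genome. The genes Abca8b, Abca8a, Abca9, Abca6 and Abca5 lie in this order on the minus strand of chromosome 11 (GRCm38), from 109932190 at the end of Abca8b to 110337716 at the start of Abca5, with Abca9 from 110100749 to 110168196. Abca8a, directly beside Abca9, had 10.7 ± 1.82 CPM in IP and 7.55 ± 2.83 CPM in unbound RNA (0.51 ± 0.33, adjusted p = 0.253). Abca6, on the other side, had 1.6 ± 1.17 and 4.04 ± 2.21 CPM (-1.34 ± 0.68, adjusted p = 0.145), and was called lower without unbound 2 (-1.67, adjusted p = 0.037). Abca8b had 5.75 ± 3.35 and 10.9 ± 3.39 CPM (-0.92 ± 0.45, adjusted p = 0.13), and was called lower without IP 4 (-1.44, adjusted p = 0.0411). So of 5 adjacent and related genes 1 rose, 1 fell and 3 were not called. Reads that match several of these similar genes were not counted for any of them, since the files keep reads with more than 1 alignment apart (33.1% to 39.6% of the counts in all rows in IP and 17.6% to 34.6% in unbound libraries).

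**Figure D3:**
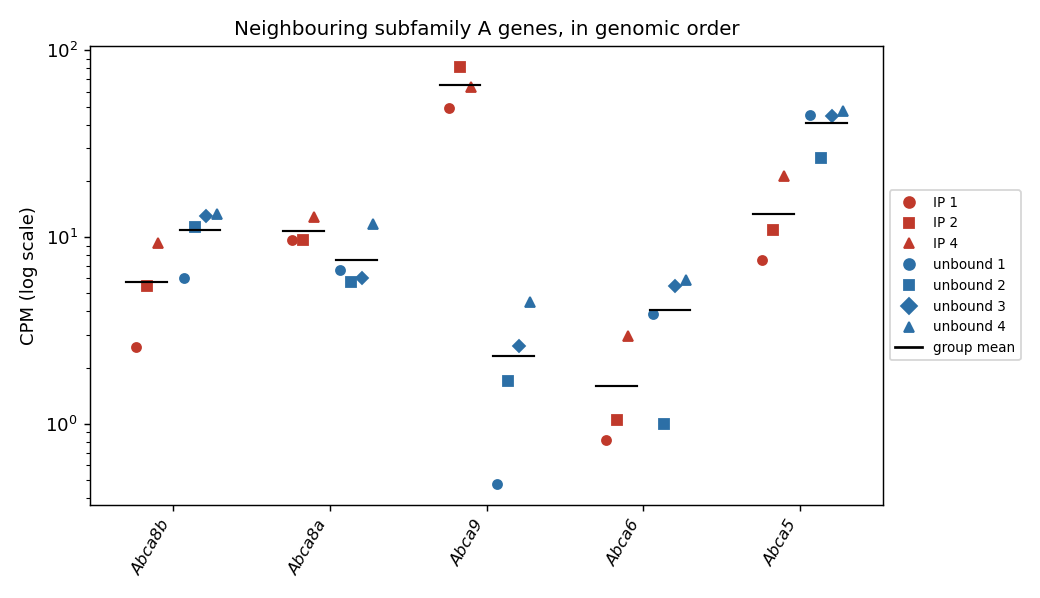
CPM (log scale) in each library for the 5 neighbouring genes of chromosome 11, in genomic order, with IP libraries in red, unbound libraries in blue and black bars for group means. Abca9 is the gene with IP libraries at 49.4 to 81.7 CPM and unbound libraries at 0.476 to 4.48 CPM, while Abca5 shows the opposite order.

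Start-site sequence was at hand for 34 of the 46 members (RefSeq, GRCm38.p6). The 250 bases before the annotated start are shown for 4 of the neighbours, because their RNA levels went different ways. They are also shown for Abca1 and Abca2, members of the lipid exporter group that moved in opposite directions. Capitals mark every match, on either strand, to the TATA box (searched as TATAAA), the box bound by NF-Y (searched as CCAAT), the Sp1 box (searched as GGGCGG), the E-box (searched as CACGTG) or the paired motif described in the next paragraph. Each sequence reads 5′ to 3′ on the strand of its gene, which is the minus strand for all but Abca2. The windows are chr11:110168154-110168403 for Abca9, chr11:110095938-110096187 for Abca8a, chr11:109995846-109996095 for Abca8b, chr11:110337717-110337966 for Abca5, chr4:53159896-53160145 for Abca1 and chr2:25428349-25428598 for Abca2.
Abca9: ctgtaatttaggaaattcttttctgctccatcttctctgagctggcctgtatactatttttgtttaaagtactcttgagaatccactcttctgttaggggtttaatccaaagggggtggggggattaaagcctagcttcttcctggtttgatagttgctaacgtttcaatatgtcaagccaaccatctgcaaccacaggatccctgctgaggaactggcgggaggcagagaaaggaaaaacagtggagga
Abca8a: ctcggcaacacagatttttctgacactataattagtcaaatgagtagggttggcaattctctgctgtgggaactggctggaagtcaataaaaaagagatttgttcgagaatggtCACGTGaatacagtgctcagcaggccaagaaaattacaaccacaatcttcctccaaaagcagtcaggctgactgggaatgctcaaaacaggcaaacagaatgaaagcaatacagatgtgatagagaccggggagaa
Abca8b: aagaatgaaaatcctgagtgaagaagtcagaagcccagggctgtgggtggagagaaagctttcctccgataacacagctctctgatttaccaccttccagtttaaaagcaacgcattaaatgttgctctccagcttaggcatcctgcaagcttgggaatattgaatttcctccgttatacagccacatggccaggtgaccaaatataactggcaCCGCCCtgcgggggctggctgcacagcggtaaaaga
Abca5: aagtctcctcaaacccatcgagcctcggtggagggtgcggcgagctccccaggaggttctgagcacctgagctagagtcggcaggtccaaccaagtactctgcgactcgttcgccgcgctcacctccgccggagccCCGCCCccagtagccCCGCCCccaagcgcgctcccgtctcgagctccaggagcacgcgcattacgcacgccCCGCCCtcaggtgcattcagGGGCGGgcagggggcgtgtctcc
Abca1: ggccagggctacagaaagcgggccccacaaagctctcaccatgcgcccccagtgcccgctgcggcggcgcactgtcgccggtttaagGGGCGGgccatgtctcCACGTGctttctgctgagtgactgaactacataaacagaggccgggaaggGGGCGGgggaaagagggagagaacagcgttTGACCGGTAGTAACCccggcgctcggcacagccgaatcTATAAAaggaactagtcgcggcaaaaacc
Abca2: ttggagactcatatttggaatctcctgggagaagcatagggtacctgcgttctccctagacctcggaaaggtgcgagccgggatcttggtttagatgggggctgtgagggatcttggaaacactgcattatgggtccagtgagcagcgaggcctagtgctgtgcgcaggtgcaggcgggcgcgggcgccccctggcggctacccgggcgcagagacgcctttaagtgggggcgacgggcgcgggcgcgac

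The window of Abca9 held 2 CpG dinucleotides at 44.4% G and C and none of the 5 motifs. Those of Abca8a and Abca8b were similar in base composition, with 4 and 6 CpG at 43.2% and 48.8%, and held 1 CACGTG and 1 GGGCGG. The Abca5 window was CpG-rich, with 25 CpG at 69.2% G and C and 4 copies of GGGCGG, a motif bound by Sp1. Over all 32851 windows of this length the median was 52.4% G and C. The Abca1 window held TATAAA starting at position -29 from the start site and CACGTG, an E-box, at -147. It also held, starting at -67, a pair of GGTNA motifs in the same direction with 5 bases between them, here on the opposite strand, the spacing at which the sterol receptors LXR alpha and beta bind as dimers with RXR. Abca1 was the single one of the 34 members with this pair, which occurred in 204 of all windows (0.621%). The Abca2 window, with 20 CpG at 63.2% G and C, held none of the 5 motifs. By comparison GGGCGG was in 14 of the 34 members (32.7% of all windows), CCAAT in 13 (33.8%), TATAAA in 5 (12.4%) and CACGTG in 4 (6.02%). Such matches describe the letters of these windows and show no binding.

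The exporters of drugs, bile salts and conjugates in subfamilies B and C, 11 genes with 9 tested, gave 1 higher, 3 lower and 5 not called. Abcc6, whose loss causes calcification of elastic tissue, had 90, 45 and 58 counts in IP 1, 2 and 4, or 1.2, 0.784 and 1.14 CPM. The unbound libraries held 1, 2, 3 and 0 counts. The ratio of summed, scaled counts was 43.4, with a 95% exact counting interval of 19.6 to 120, and edgeR's adjusted p = 0.00299. Abcc6 passed the low-count filter through IP libraries alone, so these values are no independent support for a difference. Abcc5, an exporter of cyclic nucleotides and other organic anions and the most abundant of the group, had 12.5, 17.9 and 25.4 CPM in IP and 58, 53, 58.8 and 55.5 CPM in unbound RNA. The unbound values were nearly equal and all above the IP values, and Abcc5 fell by 1.60 on the log2 scale (SE 0.27, adjusted p = 0.00102). Abcc10, a drug exporter, had 2.8, 2.16 and 1.69 CPM in IP and 10.8, 4.91, 4.25 and 3.97 CPM in unbound RNA (-1.43 ± 0.47, adjusted p = 0.0335). Unbound 1 was far above the other 3, and without it the change was -0.98 (adjusted p = 0.0697). That call was also lost without IP 1, IP 2 or IP 4 (adjusted p = 0.063, 0.106 and 0.0988) and within index ACAGTG (adjusted p = 0.0921).

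Abcc2, the canalicular exporter of conjugated bilirubin, was hardly present, with 1 count in IP and 31, 29, 3 and 11 counts in unbound 1 to 4. Its unbound level was 54.8 times that in IP, with a 95% exact counting interval of 9.54 to 2194 (adjusted p = 0.0173, and adjusted p = 0.0508, 0.0808 and 0.0579 without IP 1, IP 2 and IP 4, and 0.068 within index ACAGTG). Abcc2 passed the low-count filter through unbound libraries alone, so these values are no independent support for a difference. The interval covers counting error only, while the unbound counts differed widely between libraries. Abcc3, an exporter of glucuronides, had 3.25, 2.94 and 3.08 CPM in IP and 0, 1.24, 1.14 and 0.3 CPM in unbound RNA. The groups did not overlap, but the gene was not called (2.21 ± 1.06, adjusted p = 0.123). Among the alternatives it was called by limma voom (4.05, adjusted p = 0.0183) and without unbound 1 (1.79, adjusted p = 0.0383). Within index GTGAAA, with 1 IP library, its change was 2.12. Abcc1, a glutathione conjugate exporter, had 14.4 ± 4.85 CPM in IP and 17.7 ± 6.04 CPM in unbound RNA (-0.30 ± 0.34, adjusted p = 0.515). Abcb1b, one of the mouse P-glycoprotein genes, had 3.13 ± 0.426 and 1.68 ± 0.51 CPM, without overlap between the groups (0.90 ± 0.47, adjusted p = 0.152). Its sequence is close to that of Abcb1a, so reads that match both were not counted and its level is uncertain. The phosphatidylcholine flippase Abcb4 (-0.29 ± 0.90) and Abcc12 (-0.74 ± 0.73, adjusted p = 0.451) were low and not called. The bile salt exporter Abcb11 and Abcb5 had 3 counts each in total.

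Abcc8, the sulfonylurea receptor SUR1, is the regulatory subunit of ATP-sensitive potassium channels in neurons. It measured 1.61, 2.91 and 5.58 CPM in IP and 9.92, 4.89, 10.8 and 8.56 CPM in unbound RNA, where IP 4 overlapped unbound 2. Its change was -1.34 ± 0.47 (adjusted p = 0.0429). The call was lost without IP 1, IP 2, unbound 1, unbound 3 or unbound 4 (adjusted p = 0.149, 0.141, 0.0726, 0.101 and 0.0766) and within index ACAGTG (adjusted p = 0.0981). The changes in these fits were, in this order, -0.99, -1.24, -1.26, -1.22, -1.35 and -1.71. The pore subunit that pairs with SUR1, Kcnj11, fell as well, from 26.1 ± 6.77 to 8.77 ± 0.675 CPM (-1.57 ± 0.28, adjusted p = 0.00131). The other pore subunit, Kcnj8, typical of pericytes and smooth muscle, rose from 0.841 ± 0.623 to 232 ± 71.8 CPM (8.13 ± 0.82, adjusted p = 3.15e-05).

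Of the mitochondrial and lysosomal members of subfamily B, 5 genes, 2 were called lower and 0 higher. Abcb8, a subunit found in mitochondrial potassium channel complexes, had 11.9, 17.5 and 15.3 CPM in IP and 25.1, 37.7, 29.9 and 27.4 CPM in unbound RNA. The groups were apart, and the gene fell by 1.01 on the log2 scale (SE 0.25, adjusted p = 0.00947), a call lost without IP 1 (-0.86, adjusted p = 0.0603) and within index ACAGTG (adjusted p = 0.091). Abcb9, a lysosomal peptide transporter related to the TAP proteins, had 7.83 ± 2.86 CPM in IP and 15 ± 3.46 CPM in unbound RNA, with IP 4 just below unbound 4. Its adjusted p of 0.0468 (-0.93 ± 0.34) was close to the threshold. The call was lost without IP 1, IP 2, unbound 2 or unbound 3 (adjusted p = 0.135, 0.191, 0.0675 and 0.119) and within index ACAGTG (adjusted p = 0.0782). It was also lost with library size as the only scaling (adjusted p = 0.0567) and without the low-count filter (adjusted p = 0.0546). Abcb10, which supports haem synthesis, had -0.41 ± 0.26 (adjusted p = 0.236). Abcb6, a porphyrin carrier, had -1.003 ± 0.499 (adjusted p = 0.135, and 0.0481 without unbound 1).

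In subfamily D, Abcd2, a peroxisomal importer of long and very long fatty acids, had 27.6 ± 4.06 CPM in IP and 23.9 ± 5.03 CPM in unbound RNA (0.21 ± 0.25, adjusted p = 0.538). Abcd3, the abundant 70 kDa protein of the peroxisomal membrane, had 43.5, 45.9 and 45.7 CPM in IP and 34.1, 34.2, 40.3 and 46.1 CPM in unbound RNA, and the groups overlapped (0.22 ± 0.21, adjusted p = 0.433). Abcd4, a lysosomal member needed for vitamin B12 use, had 0.31 ± 0.37 (adjusted p = 0.534).

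The soluble members, which act on ribosomes, changed least among the called genes. Abcf1, an initiation factor partner, had 88.2, 78.5 and 84.8 CPM in IP and 43.4, 44.4, 58 and 67.1 CPM in unbound RNA, without overlap. It rose by 0.66 ± 0.22 (adjusted p = 0.039), and the call was lost without any of IP 1, IP 2, IP 4, unbound 1 or unbound 3 (adjusted p = 0.113, 0.086, 0.0771, 0.0769 and 0.0707). Without the low-count filter it was lost as well (adjusted p = 0.05035). Abcf2 had 69.3, 45.3 and 68.2 CPM in IP and 113, 99.7, 102 and 108 CPM in unbound RNA, a clear gap (-0.80 ± 0.23, adjusted p = 0.0169) that was not called without IP 2 (-0.61, adjusted p = 0.107). Abcf3 had 38.3 ± 3.57 and 61.5 ± 13.9 CPM (-0.68 ± 0.23, adjusted p = 0.0383). Its call was lost without IP 1, IP 2, IP 4, unbound 1 or unbound 3 (adjusted p = 0.106, 0.159, 0.0682, 0.0766 and 0.0548). The call was also lost with library size as the only scaling (adjusted p = 0.0954) and without the low-count filter (adjusted p = 0.0552). Within index ACAGTG none of these 3 was called (adjusted p = 0.0655 for Abcf1, 0.109 for Abcf2 and 0.0949 for Abcf3). Abce1, the factor that splits ribosomes after termination, had 88.8 ± 4.88 CPM in IP and 70.3 ± 7.92 CPM in unbound RNA. Its groups did not overlap, but 0.34 ± 0.20 was not called (adjusted p = 0.203).

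Of the other members, Abcg3, a rodent gene close in sequence to Abcg2, had 144, 72 and 62 counts in IP 1, 2 and 4, or 1.92, 1.25 and 1.22 CPM. The unbound libraries held 0, 0, 1 and 2 counts. The ratio of summed, scaled counts was 125, with a 95% exact counting interval of 42.4 to 610 (adjusted p = 0.00116). Abcg3 passed the low-count filter through IP libraries alone, so these values are no independent support for a difference. Reads that match a similar gene as well were not counted, so its level is uncertain. Abca17, which starts next to Abca3 on the opposite strand, had 12, 3 and 7 counts in IP and 23, 24, 70 and 42 counts in unbound RNA. In CPM all IP libraries were lower, but -2.54 ± 0.97 was not called (adjusted p = 0.058). Among the alternatives it was called without unbound 1 (-2.79, adjusted p = 0.0299) and by DESeq2 (-2.55, adjusted p = 0.0115). Within index GTGAAA, with 1 IP library, the change was -2.87. Abca17 passed the low-count filter through unbound libraries alone, so a difference was built into its being tested. Abca14, Abca15 and Abca16 had 3, 2 and 1 counts in all 7 libraries.

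Levels were compared between genes as CPM per kilobase of exon (union of the exons in GENCODE M21). The order depends on the length used. Exon union and mean transcript length were both 2569 bases for Abcf2. They were 8346 and 1698.6 for Abca2, and 4410 and 960.1 for Abcf1. By mean transcript length, 9 of the 10 highest genes in unbound RNA were the same. The ranks below hold for exon union only. In unbound RNA Abcf2 was highest at 41.2 ± 2.38 CPM per kb (SD, n = 4), then Abca2 at 19.7 ± 6.39 and Abcf3 at 17.3 ± 3.89, which did not differ beyond their spread, and Abcg4, Abcf1 and Abce1 at 12.5 ± 2.16, 12.1 ± 2.58 and 11.7 ± 1.32, which did not either. In IP the order began with Abcf2 (23.7 ± 5.26 CPM per kb, SD, n = 3), Abcf1 (19 ± 1.12) and Abce1 (14.8 ± 0.812), with Abcf3 at 10.8 ± 1. Abca9 came next at 8.06 ± 2.01 CPM per kb, rank 6 of 46 in IP, against rank 28 in unbound RNA at 0.288 ± 0.21. Abca2 was at rank 2 in unbound RNA and at rank 8 in IP. Together the 46 genes summed to 707, 742 and 902 CPM in IP and 1065, 775, 1033 and 1017 CPM in unbound RNA.

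**Figure D4:**
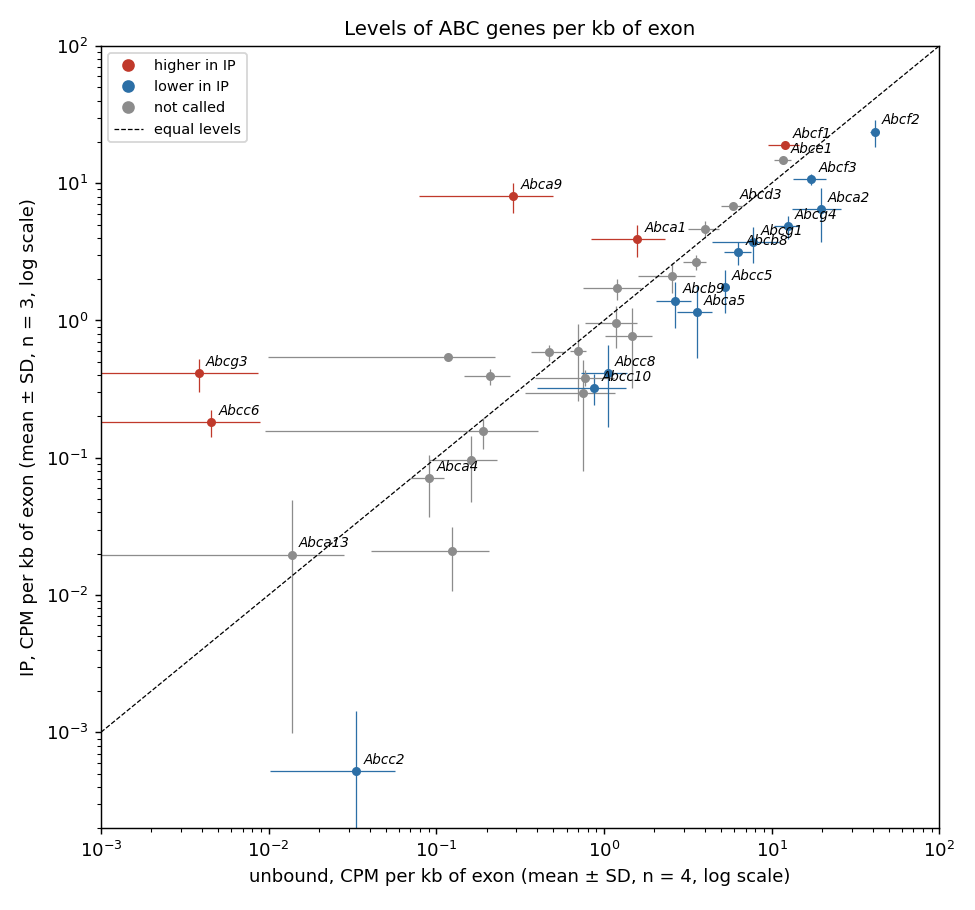
Mean level per kilobase of exon of tested ABC genes in unbound RNA (horizontal axis) and in IP RNA (vertical axis), both on log scales, with bars of 1 SD over 4 unbound and 3 IP libraries, shortened where they would reach 0. Red and blue mark genes called higher and lower in IP, and the dashed line marks equal levels, with Abca9 (8.06 against 0.288 CPM per kb) far above it and Abca2 (6.48 against 19.7) below.

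Genes that work with these transporters were read from the same fit. Over all genes 20.5% were called higher and 18.9% lower, and the counts of these lists stand beside those shares. Of 21 genes listed under cholesterol efflux and its control 10 were higher and 1 lower, with a median log2 fold change of 0.52. The 10 included Ttr (3.33 ± 1.19, adjusted p = 0.0462), whose groups overlapped. Ttr had 82.5, 10.2 and 236.5 CPM in IP 1, 2 and 4 and 4.85, 0.258, 32 and 6.58 CPM in unbound 1 to 4. The smallest p was that of Nr1h3, the sterol receptor LXR alpha, with 58.6 ± 21.5 CPM in IP and 2.59 ± 0.452 CPM in unbound RNA (4.50 ± 0.32, adjusted p = 3.76e-06), and the most abundant over all libraries, the lipocalin Apod, was not called (0.43 ± 0.29, adjusted p = 0.254). The apolipoprotein Apoe had 449 ± 49.8 CPM in IP against 90.1 ± 16.2 CPM in unbound RNA (2.32 ± 0.23, adjusted p = 3.16e-05). Its IP mean was above that of Apod (397 ± 112 CPM), but in IP 4 Apod was the higher, at 526 against 466 CPM. The lower member was Cyp46a1, the neuronal cholesterol hydroxylase (-1.77 ± 0.40, adjusted p = 0.00563). Of 16 genes of peroxisomal fatty acid handling and vitamin B12 use 4 were higher and 3 lower, shares near those of all genes. The smallest p was that of the acyl-CoA synthetase Slc27a2 (-2.97 ± 0.41, adjusted p = 0.000262). Of 15 genes of haem and iron-sulfur synthesis 1 was higher, Alas1, the first enzyme of haem synthesis (1.69 ± 0.21, adjusted p = 0.000142), and 3 were lower. The most abundant over all libraries, the scaffold Iscu (below Isca2 in the IP mean, but not in IP 4), had -0.42 ± 0.36 (adjusted p = 0.379).

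Among 11 measured genes of ribosome rescue and recycling 1 was higher and 0 lower. It was the termination factor Etf1 (0.54 ± 0.20, adjusted p = 0.0466). The most abundant over all libraries, its partner Gspt1 (just below Etf1 in the IP mean, but not in IP 4), had 0.06 ± 0.23 (adjusted p = 0.86). Of the 3 ABC genes without such a symbol the peptide transporter subunit Tap1 rose, from 0.822 ± 0.435 to 4.65 ± 1.07 CPM (2.50 ± 0.56, adjusted p = 0.00523). Tap2 and Cftr were not called and went opposite ways, at 1.62 ± 0.72 (adjusted p = 0.0968) and -1.84 ± 0.80 (adjusted p = 0.0894). Regulators of drug and oxidant responses gave 6 higher and 1 lower of 11 (10 tested), with the smallest p in the fatty acid receptor Ppard, at 209 ± 9.97 CPM in IP and 41.1 ± 7.89 CPM in unbound RNA (2.35 ± 0.23, adjusted p = 2.21e-05). The lower gene was the coactivator Ppargc1a, the most abundant in unbound RNA, though not in IP (-0.88 ± 0.30, adjusted p = 0.0374). Several of these counts rested on single libraries. Without IP 1 or IP 2 the higher peroxisomal genes were 2 and 1, without IP 2 the lower haem and iron-sulfur genes were 1, without IP 4 the lower cholesterol genes were 2, and without unbound 1 the lower peroxisomal genes were 5. Without unbound 2 the higher counts were 4 for haem and iron-sulfur, 3 for ribosome recycling and 2 for the ABC genes without the symbol. Etf1 and Ppargc1a were each not called without IP 1, IP 2, unbound 1, unbound 3 or unbound 4.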

How the data were processed

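Immunopurified RNA and RNA left unbound by the EGFP antibodies were sequenced in 7 libraries, and the authors deposited 1 table of raw counts per gene for each. Per the submitters' processing notes, STAR 2.0.0e aligned the reads to mm10 and HTSeq made the counts. For the annotation and strand setting, which were not given in the sources used here, nothing can be said, and reads of overlapping or antisense genes may be mixed. The 6 rows naming no gene were left out. Of all rows' counts, 11.3% to 18.6% lay outside any gene and 1.43% to 1.63% in IP but 7.26% to 11.5% in unbound libraries fell on several genes. Counts were tested with edgeR 4.0.16 (R 4.3.3) by the quasi-likelihood test with TMM scaling and filterByExpr, comparing 3 IP with 4 unbound libraries without covariates, with Benjamini-Hochberg adjustment over all 17654 genes. SEs were derived from the F statistic. Counting intervals and floors cover counting error only. The alternatives used DESeq2 1.42.0, limma 3.58.1 and other scalings, filters and library subsets. Positions and exon lengths came from GENCODE M21. Some genes are not reported here by name. Values in all libraries were given, per role, for the member of smallest p in each direction, the most abundant member and further called members of at least 5 CPM whose log2 fold change was 1 or more in size. Values of other members were chosen after they were seen. The members and gene lists were chosen with earlier results of these data known.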

Additional observations from a re-analysis of the deposited data

Results flagged for a closer look

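Among 40 members with at least 10 counts in total, 5 had 1 unbound library far from the other 3 by Dixon's criterion, which chance alone meets in about 1 in 20 groups. Abca5 was low in unbound 2, at 26.6 CPM against 44.3 to 47.6 CPM in the others. Abca8a was high in unbound 4, at 11.8 CPM against 5.72 to 6.66 CPM. The other 3 were high in unbound 1: Abcc10 at 10.8 CPM against 3.97 to 4.91 CPM, Abcf3 at 82.1 CPM against 53.3 to 56.9 CPM, and Abcg8 at 0.489 CPM (39 counts) against 0 to 0.019 CPM. The IP group, with 3 libraries, was too small for this criterion.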

How the results depend on the processing

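Over the 20 alternatives no called member changed direction, and 8 of the 18 (Abca2, Abca5, Abca9, Abcc5 and Abcg4 among them) kept their call in each alternative that tested them. The 8 include Abcc6 and Abcg3, tested only through the libraries where they were high, for which this says nothing. The 12 lower members became 4 within index ACAGTG, 6 when tested against a log2 change of 0.5 (glmTreat), and 5 to 12 with 1 library left out. Over all genes, index ACAGTG gave 2190 higher and 1650 lower calls, and leaving out 1 library gave 1751 to 3632 lower. Fewer libraries entered these fits, except with glmTreat. Index GTGAAA, with 1 IP library, is given by effect size only. There Abcb9, Abcc8, Abcf1, Abcf2, Abcf3 and Abcg1 had their smallest changes of any alternative, at -0.43, -0.77, 0.46, -0.61, -0.37 and -0.51. Members without a call that changed sign were Abca13 (-0.42 by limma voom, -2.63 without both IP 4 and unbound 2, -2.24 to 1.12 with 1 library left out), Abcb4 (0.44 by voom, 0.43 with the replicate block, 0.64 within GTGAAA, -0.67 to 0.85 with 1 library left out), Abca7 (0.37 within GTGAAA, -0.778 to 0.0791 with 1 left out), Abca3 (0.0132 within ACAGTG), Abca4 and Abcc1 (0.27 and 0.43 within GTGAAA) and Abcd2 (-0.0105 without IP 4 and unbound 2). The cause was not tested. With the replicate block, 5 members were higher and 8 lower, and Abcb9, Abcc2, Abcc8, Abcf1 and Abcf3 were not called (adjusted p = 0.136, 0.0504, 0.0738, 0.0814 and 0.0814). Deviations of same-numbered libraries correlated at -0.0271, 0.0423 and 0.158 (numbers 1, 2 and 4), and IP 2 and IP 4 correlated best with their own number, but IP 1 with unbound 2 (0.199). The labels do not say that a number marks the same animals, so the pairing is not established. Scaling by library size alone moved the median of all genes from -0.0966 to 0.00686. Depth limits the 8 untested members, with 1 to 66 counts in total.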
